A study of Mus musculus with 2 samples.

Results

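The Mir15, Mir16, Mir195, Mir322 and Mir497 genes form 1 microRNA family, and 7 of the 2202 microRNA genes counted in these libraries belong to it. The members were chosen by name: Mir15a, Mir15b, Mir16-1, Mir16-2, Mir497, Mir322 and the gene that GENCODE M21 calls Mir195a. The rule uses no measured value. The data are counts of small RNA reads, below 30 nt, from 2 libraries of hippocampus, the brain region of memory formation. The tissue came from wild-type female mice of strain B6NCrl, described in the labels as controls, although their sex field is marked not collected, and age was not collected either. The tissue field reads layer of hippocampus with no layer named. The libraries are labelled biological replicates 1 and 2 and carry separate biosample records but one donor record. Whether they came from separate animals is not stated, so the spread between them may be technical, and no second condition exists to compare them with.

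A microRNA is cut from a hairpin RNA and guides the silencing complex to messenger RNAs that pair with its seed, the bases near its 5′ end. One hairpin can give a mature RNA from its 5′ arm (5p) and another from its 3′ arm (3p), and in this family the shared seed lies in the 5p arm. The family is best known for restraining cell division and survival through targets such as cyclins and Bcl2, and Mir15a with Mir16-1 was described early as a tumour suppressor pair lost in leukaemia. In neurons, Mir16 has been studied for its action on the serotonin transporter, and Mir497 and Mir195 for neuronal death after ischaemia.

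The 5p arms show what makes these genes a family, and where their products differ. They are given 5′ to 3′ from RefSeq on GRCm38.p6, the same assembly as mm10, with the seed (bases 2 to 8) in capitals.
miR-15a-5p: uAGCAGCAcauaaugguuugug
miR-15b-5p: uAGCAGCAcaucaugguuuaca
miR-497a-5p: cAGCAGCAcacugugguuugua
miR-16-5p: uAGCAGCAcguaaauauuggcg
miR-195a-5p: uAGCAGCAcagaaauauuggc
miR-322-5p: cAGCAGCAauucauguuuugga
All 7 genes carry the seed AGCAGCA, and they give 6 distinct 5p arms because Mir16-1 and Mir16-2 make the same one. Of 1738 mature entries in the RefSeq table, 11 (0.633%) have this seed. The arms differ in the bases after the seed. Counted, seed included, base by base from the 5′ end, miR-195a-5p matched miR-16-5p at 19 of 21 positions, and miR-15a-5p matched miR-15b-5p at 18 of 22 and miR-497a-5p at 17 of 22. Other arms lay at fewer, such as 16 of 22 for miR-497a-5p with miR-15b-5p and for miR-15a-5p with miR-16-5p. miR-497a-5p matched its neighbour miR-195a-5p at 12 of 21. miR-322-5p stood nearest to miR-15b-5p, at 16 of 22.

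Copies decide which reads could be counted. The deposited counts hold only reads that mapped to 1 place, and those with more than 1 place were 43.9% of the reads in replicate 1 and 45.9% in replicate 2. The hairpins of Mir16-1 and Mir16-2 are shown because their product is the one most affected, with the mature arms in capitals, 5p first.
Mir16-1: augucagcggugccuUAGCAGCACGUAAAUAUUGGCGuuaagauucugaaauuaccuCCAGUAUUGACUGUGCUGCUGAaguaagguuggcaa
Mir16-2: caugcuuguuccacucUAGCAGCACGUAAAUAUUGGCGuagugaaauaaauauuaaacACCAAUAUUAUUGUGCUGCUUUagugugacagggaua
These hairpins share a run of 23 bases, which covers all 22 bases of miR-16-5p and 1 base beyond it. A read of miR-16-5p itself therefore maps to both genes and was credited to neither. The counts of Mir16-1 and Mir16-2 below come from the rest of each hairpin, such as the 3p arms, or from reads that run past the shared stretch, and they leave out an unknown number of miR-16-5p reads. No other member had this limit to that degree. Among the 5p arms of the other 5 members the longest run shared with a hairpin elsewhere was 16 of 21 bases, between miR-195a-5p and Mir195b, and for Mir497, Mir15a, Mir15b and Mir322 it was 10 or 11 bases. The rest of the genome was not searched for copies.

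The 7 members lie at 4 loci, all coordinates being mm10. Mir15a (chromosome 14, 61632027 to 61632110) and Mir16-1 (61631880 to 61631972) sit 54 bases apart on the minus strand in the noncoding gene Dleu2, Mir15a in an intron and Mir16-1 overlapping an exon of a Dleu2 transcript. Mir15b (chromosome 3, 69009772 to 69009835) and Mir16-2 (69009902 to 69009996) sit 66 bases apart on the plus strand in an intron of Smc4, which encodes a condensin subunit. Mir497 (chromosome 11, 70234717 to 70234800) and Mir195a (70235042 to 70235135) sit 241 bases apart on the plus strand, with no annotated host gene on that strand. Mir322 (chromosome X, 53054255 to 53054349, minus strand) also has no host gene, and 6 other microRNA genes follow it within 10 kb.

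Together the members held 2419 CPM (sense counts per 1000000 sense counts on microRNA genes) in replicate 1 and 2460.2 in replicate 2, a mean of 2439.7 ± 29.0 CPM (SD, n = 2). That was 0.242% and 0.246% of the counts, from 16242 and 14518 reads. These sums leave out the miR-16-5p reads that mapped to both Mir16 genes, so they are not the family's whole level. Their near equality also rests on the scaling: with library sizes adjusted by the TMM method of edgeR, a setting added after the data were seen, they were 2287 and 2602 CPM, a log2 ratio of 0.19. Mature microRNAs are of similar length and the reads are short enough to span one, so levels were compared without scaling to gene length. Depth was 6713867 sense counts in replicate 1 and 5901107 in replicate 2, and all 7 members were counted in both.

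**Figure D1:**
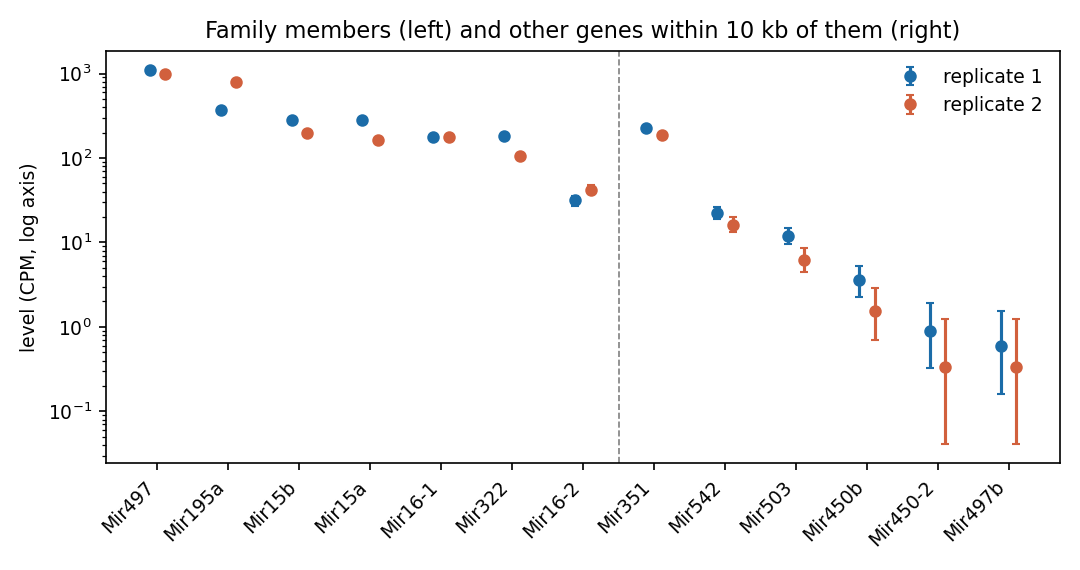
Level of each member (left of the dashed line) and of the other microRNA genes within 10 kb that had counts (right), in CPM on a log axis, 1 point per library with its exact 95% counting interval. Mir497 led in both libraries, at 1093 and 986 CPM, and Mir16-2 was the lowest member, at 31.4 and 42.2 CPM.

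Mir497 was the leading member. It had 7339 counts in replicate 1 and 5821 in replicate 2, which is 1093 CPM (exact 95% interval 1068 to 1118) and 986 CPM (961 to 1012). Its mean of 1039.8 ± 75.4 CPM (SD, n = 2) placed it 88th of 2202 genes. In CPM, which is scaled by totals, its values were closer to each other than those of any other member except Mir16-1, relative to their mean.

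Mir195a, the partner of Mir497, was second and the most variable. It had 2483 counts in replicate 1 and 4666 in replicate 2, or 370 CPM (exact 95% interval 355 to 385) and 791 CPM (768 to 814). Its mean was 580.3 ± 298 CPM (SD, n = 2). Both of its values lay below both values of Mir497 and above every value of the other 5 members, so this part of the order held in both libraries.

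Mir15b and Mir15a were next by mean level, and their ranges over the libraries overlapped. Mir15b had 1893 and 1161 counts, or 282 and 197 CPM, with a mean of 239 ± 60.3 CPM (SD, n = 2). Mir15a had 1879 and 968 counts, or 280 and 164 CPM, with a mean of 222 ± 81.9 CPM. The difference between these means was smaller than the spread of either gene between libraries. Within each library Mir15b lay above Mir15a. Their exact 95% intervals overlapped in replicate 1 (269 to 295 and 267 to 293 CPM) but not in replicate 2 (186 to 208 and 154 to 175 CPM).

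Mir16-1 had 1197 and 1033 counts, or 178 and 175 CPM. Its mean of 177 ± 2.29 CPM (SD, n = 2) had the smallest spread of the family on this scale. Under TMM the log2 ratio between the libraries was 0.14 for Mir16-1 and 0.01 for Mir497, so this place rests on the scaling. Mir322, the mouse counterpart of human MIR424, had 1240 and 620 counts, or 185 and 105 CPM, with a mean of 145 ± 56.3 CPM. The ranges of Mir15b and Mir15a, of Mir15a and Mir16-1, and of Mir16-1 and Mir322 overlapped. The genes of each such pair do not differ beyond their spread over the libraries. In replicate 1 Mir322 exceeded Mir16-1, and in replicate 2 Mir16-1 exceeded both Mir15a and Mir322. Mir15b and Mir15a exceeded Mir322 in both libraries.

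Mir16-2 was the lowest, with 211 and 249 counts, or 31.4 CPM (exact 95% interval 27.3 to 36.0) and 42.2 CPM (37.1 to 47.8). Its mean of 36.8 ± 7.61 CPM (SD, n = 2) ranked 237th of 2202 genes, and both values lay below every value of the other members. Since miR-16-5p reads are missing from both Mir16 genes, their places in this order are not those of the microRNA in the tissue.

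**Figure D2:**
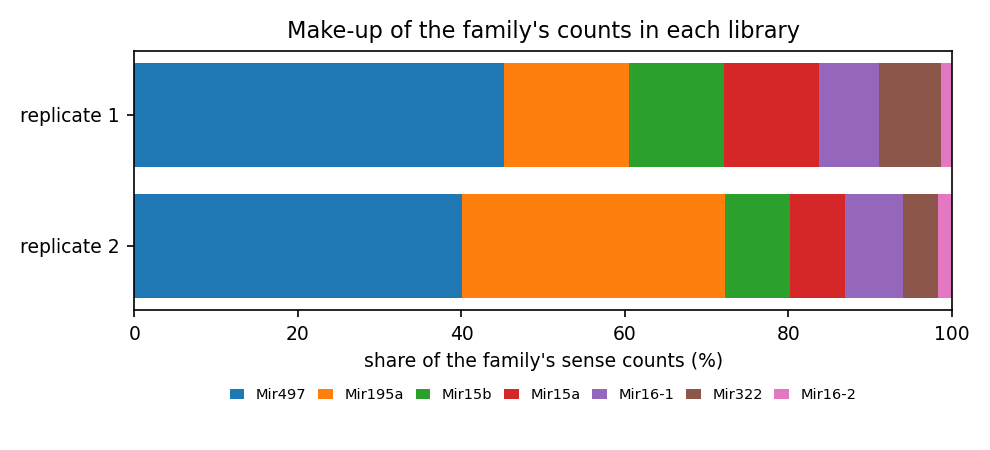
Share of each member in the family's sense counts, in percent, 1 bar per library. Mir195a took 15.3% in replicate 1 and 32.1% in replicate 2, and Mir497 took 45.2% and 40.1%.

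Seen as shares of the family, Mir497 took 45.2% (exact 95% interval 44.4 to 46.0) in replicate 1 and 40.1% (39.3 to 40.9) in replicate 2. Mir195a took 15.3% (14.7 to 15.9) and 32.1% (31.4 to 32.9), a difference larger than that of any other member. Mir15b took 11.7% and 7.997%, Mir15a 11.6% and 6.67%, and Mir322 7.63% and 4.27%. Mir16-1 was at 7.37% and 7.12%, with overlapping intervals, and Mir16-2 was at 1.30% and 1.72%. Mir497 and Mir195a together thus held most of the family's uniquely mapped reads in both libraries. Because the miR-16-5p reads are missing, this does not rank the loci by output.

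The strand of the reads decided whether Mir497 was seen at all, since the annotated gene Mir497b lies opposite it. Mir497b (chromosome 11, 70234692 to 70234816, minus strand) spans the whole of Mir497. Both hairpins are shown in their own 5′ to 3′ direction, with the annotated mature RNAs in capitals.
Mir497: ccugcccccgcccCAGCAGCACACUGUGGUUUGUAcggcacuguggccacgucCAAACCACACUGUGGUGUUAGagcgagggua
Mir497b: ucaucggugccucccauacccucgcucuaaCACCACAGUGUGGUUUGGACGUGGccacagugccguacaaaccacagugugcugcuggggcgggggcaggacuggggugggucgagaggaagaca
All 84 bases of Mir497 are contained, as the reverse complement, in Mir497b. The annotated miR-497b is read from the other strand and has the seed ACCACAG, so it is not of this family.

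On the strand of Mir497 there were 7339 reads in replicate 1 and 5821 in replicate 2, against 4 and 2 on the strand of Mir497b. The minus strand thus gave 0.0545% of the locus in replicate 1 (exact 95% interval 0.0148 to 0.139) and 0.0343% in replicate 2 (0.00416 to 0.124). When strand was ignored, both genes were listed at 0 and their reads were in the class ambiguous between genes, where they made up 1.68% and 1.58%. The other 6 members had 0 antisense reads in both libraries and the same counts with and without strand. For a count of 0 the floor was set at 3 counts, which is 0.447 CPM in replicate 1 and 0.508 CPM in replicate 2. The exact 95% upper bounds for a count of 0 were 0.549 and 0.625 CPM.

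**Figure D3:**
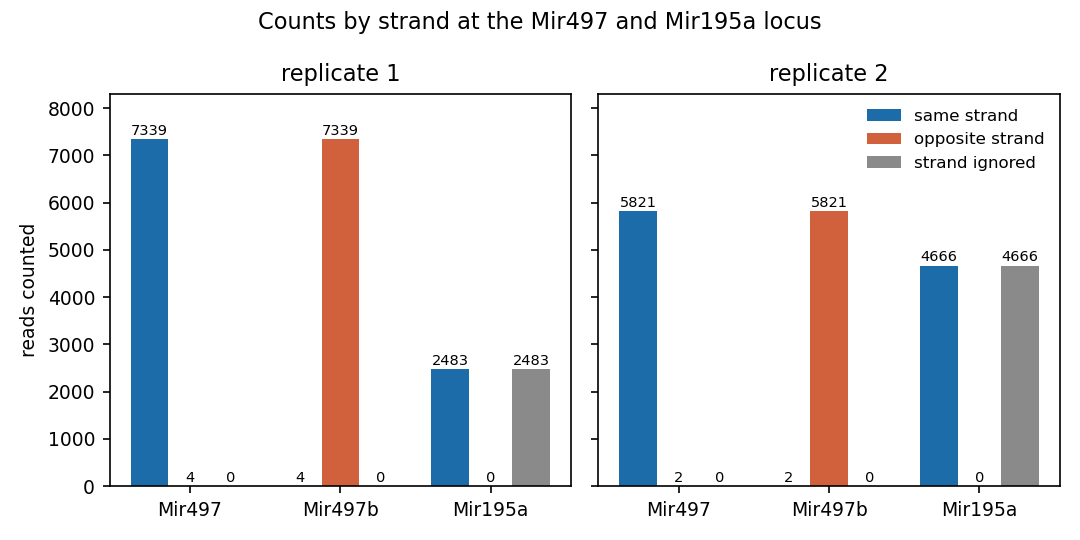
Reads counted at Mir497, Mir497b and Mir195a in replicate 1 (left) and replicate 2 (right), on the strand of the gene, on the opposite strand and with strand ignored. Mir497 had 7339 and 5821 reads on its own strand and 0 when strand was ignored, whereas Mir195a had the same number either way.

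The libraries were then compared gene by gene. The ratio is log2 of replicate 2 over replicate 1, with 0.5 counts added to each count and library sizes adjusted by TMM as above, and its standard error (SE) covers counting error only. Each gene was tested with a 2-sided Fisher exact test against all other counts, and p was adjusted by Benjamini-Hochberg over 466 genes, those averaging at least 10 counts. A gene was called higher or lower if its adjusted p was below 0.05 and the sign of its ratio was the same whether scaled by TMM, by totals or by DESeq2 size factors. This compares 2 libraries and not conditions. The exact test uses totals, so an adjusted p below is not a test of the TMM ratio and SE printed beside it. All 7 members had enough counts to be tested and 6 passed the adjusted p, against a background of 57.5% of all tested genes. The background was 84.8% among the 243 genes averaging at least 200 counts, a minimum chosen after the members' counts were seen and met by all of them. A pass by 6 of 7 is therefore near what genes of this depth showed. Of the 7, 2 were called higher in replicate 2, against 18% of all tested genes, and 3 lower, against 35.6%. The median ratio of the members was 0.01, and that of all tested genes was -0.02. With totals these medians were -0.15 and -0.18.

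Mir195a and Mir16-2, which lie at different loci, were the members called higher in replicate 2. Mir195a had a log2 ratio of 1.26 (SE 0.04, adjusted p 4.23e-216 by Fisher's exact test), a 2.39-fold difference and the largest of the family. Mir16-2 had a ratio of 0.59 (SE 0.13, adjusted p 0.00344 by the same exact test). Scaled by totals, the log2 ratios were 1.10 (Mir195a) and 0.42 (Mir16-2).

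Mir15a, Mir15b and Mir322 were called lower in replicate 2. Mir322 had a log2 ratio of -0.65 (SE 0.07, adjusted p 3.00e-31 by Fisher's exact test), a 1.57-fold difference. Mir15a was at -0.61 (SE 0.06, adjusted p 1.21e-42, exact test) and Mir15b at -0.36 (SE 0.05, adjusted p 6.82e-22, exact test). Scaled by totals, the log2 ratios were -0.81 (Mir322), -0.77 (Mir15a) and -0.52 (Mir15b). These differences exceed counting error, but 1 library on each side gives no check on the spread among samples of one kind.

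Mir497 and Mir16-1 were called in neither direction. Mir497 passed the exact test (adjusted p 1.37e-08), but its log2 ratio was 0.01 under TMM and -0.15 under totals, so its sign depends on the scaling. Mir16-1 did not pass (adjusted p 0.765, exact test), with ratios of 0.14 (SE 0.06) under TMM and -0.03 under totals.

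**Figure D4:**
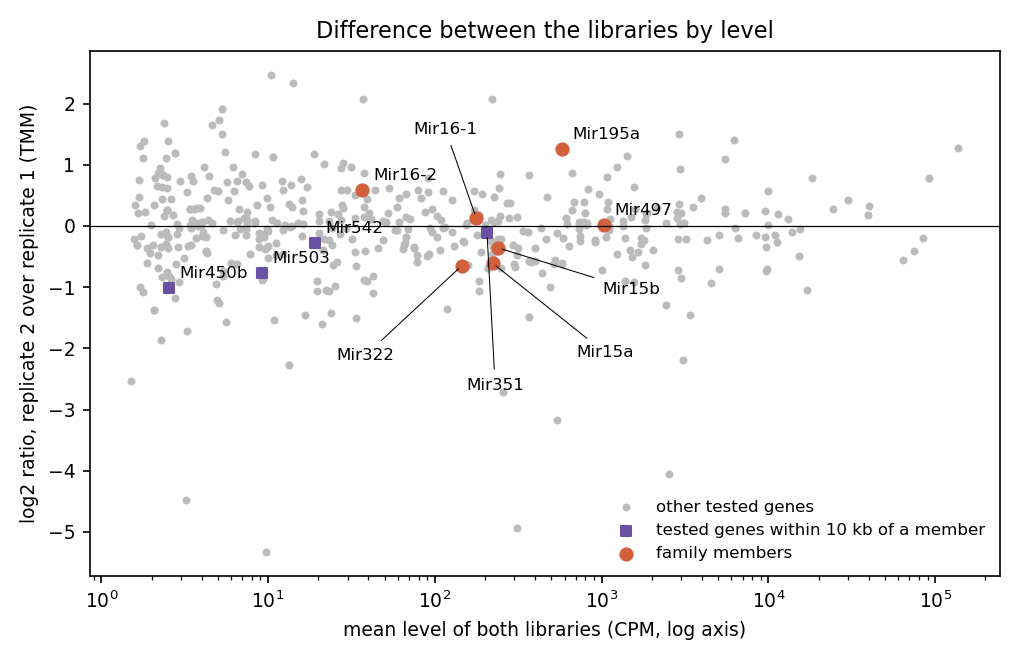
Log2 ratio of replicate 2 over replicate 1 (TMM) against the mean level in CPM on a log axis, for the 466 tested genes, 1 point per gene. Mir195a stands above the other members at 1.26, and Mir15a, Mir15b and Mir322 lie between -0.65 and -0.36.

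Markers of other cell types also differed between the libraries. The calls below stand against a background of 18% of all tested genes called higher in replicate 2 and 35.6% called lower. Mir126a of endothelium had 6191 CPM in replicate 1 and 2897 in replicate 2. The erythrocyte markers Mir451a, Mir486 and Mir144 summed to 73.1 and 32.7 CPM. Mir144 had too few counts to be tested, and the other 2 were called lower. The 6 markers of leukocytes and microglia summed to 2028 and 2246 CPM, with 4 called lower and 2 higher. Of the 9 muscle markers 6, among them Mir1a-1, Mir1a-2 and Mir133a-1, were at 0 in both libraries, and the list summed to 37.4 and 23.0 CPM. The lists differ in size, with 8 neuronal genes and 1 of endothelium, so their sums do not rank cell types. The neuronal list had the highest sum, at 28627 and 30219.6 CPM. Of its 5 tested genes 2 were called higher in replicate 2 and 3 lower: Mir128-1 was at 3723 and 8772 CPM and Mir128-2 at 953 and 1882, while Mir132, the highest, was at 15073 and 12539.5 CPM. In that list Mir124a-2 was at 0 and Mir124a-1 and Mir124a-3 had 8 reads or fewer. Only uniquely mapped reads were counted, and the marker genes were not searched for copies of their arms. A low or 0 count in these lists, as for the Mir1a, Mir133a and Mir124a genes, therefore does not show that the microRNA was absent. The part of any of these cells in the members' differences was not tested. In bulk tissue, fewer cells of a type and less RNA per cell cannot be told apart. The labels also name a different adapter trimming document for each library, and that difference cannot be told apart from a difference between the tissues.

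Genes that share a locus did not keep their ratio. This ratio needs no scaling between libraries, because both genes are read from the same library. Mir497 stood at 2.96 times Mir195a in replicate 1 and 1.2475 times in replicate 2. On the log2 scale that was 1.56 (counting SE 0.03) and 0.32 (SE 0.03), a difference (replicate 2 minus replicate 1) of -1.24 (95% counting interval -1.33 to -1.16).

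At the Dleu2 locus, Mir15a was at 1.57 times Mir16-1 in replicate 1 and at 0.937 times in replicate 2. The log2 ratios were 0.65 (SE 0.05) and -0.09 (SE 0.06), a difference (replicate 2 minus replicate 1) of -0.74 (95% counting interval -0.91 to -0.58). In replicate 2 the ratio lay within 2 counting SE of 0.

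At the Smc4 locus, Mir15b was at 8.95 times Mir16-2 in replicate 1 and at 4.66 times in replicate 2. The log2 ratios were 3.16 (SE 0.10) and 2.22 (SE 0.10), a difference (replicate 2 minus replicate 1) of -0.94 (95% counting interval -1.23 to -0.66). Mir15b stayed above Mir16-2 in both libraries, with the reads of miR-16-5p left out.

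At the Mir322 locus, Mir322 was at 15.2 times Mir503 in replicate 1 and at 16.5 times in replicate 2. The log2 ratios were 3.93 (SE 0.17) and 4.05 (SE 0.24), a difference of 0.12 whose 95% counting interval, -0.45 to 0.70, includes 0. The other 3 pairs thus differed beyond counting error, and the sign of each difference follows from which gene was written first. At this depth no difference was detectable for Mir322 and Mir503.

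Differences of this size were not rare among tested neighbours of any depth. Over all 65 pairs of adjacent tested genes on one strand with a gap of at most 1 kb, the 3 family pairs and the pair of Mir322 and Mir503 included, the log2 ratios of the neighbours differed by a median of 0.41 (quartiles 0.24 and 0.76). A difference at least as large as that of Mir15a and Mir16-1 was found in 19 pairs (29.2%), and one at least as large as that of Mir497 and Mir195a in 6 (9.23%). Some of these pairs hold genes with few counts, such as Mir141 (mean 4.58 CPM) and Mir20b (2.43 CPM), where counting error is larger. The share among pairs of the family's depth was not computed.

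**Figure D5:**
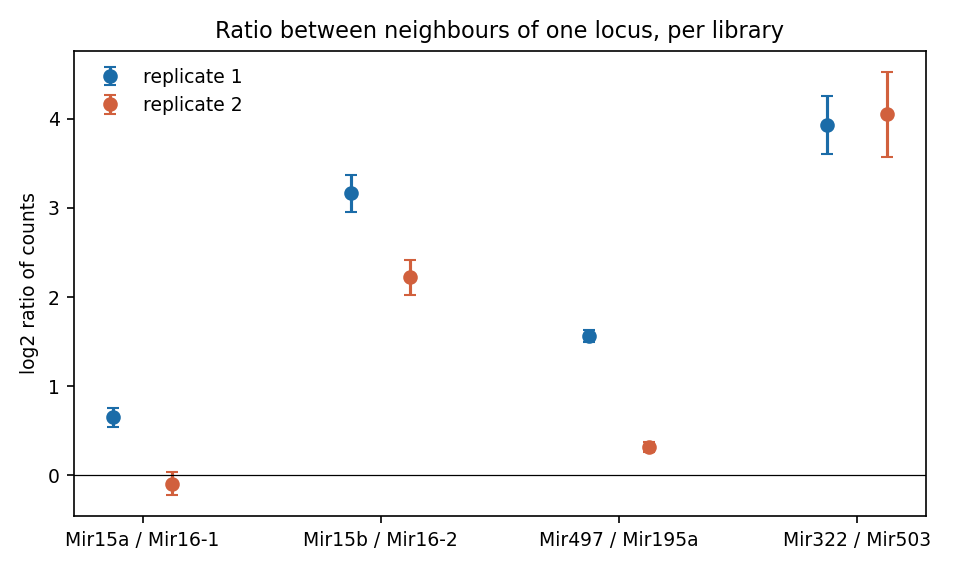
Log2 ratio of the counts of neighbouring genes in each library, for the 4 loci, with bars for the 95% counting interval. The ratio was lower in replicate 2 than in replicate 1 for Mir15a over Mir16-1, Mir15b over Mir16-2 and Mir497 over Mir195a, and stood at 3.93 and 4.05 for Mir322 over Mir503.

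The genes downstream of Mir322 on chromosome X belong to other seed families and were mostly lower than it. Mir351, a rodent relative of the Mir125 family by its seed, was the exception, with 1514 and 1095 counts, or 226 and 186 CPM (mean 206 ± 28.2, SD, n = 2), above Mir322 in both libraries. Mir542 had 149 and 96 counts, or 22.2 and 16.3 CPM. Mir503, whose 5p arm is given here with its seed in capitals because it differs from the family in the last seed base, had 81 and 37 counts, or 12.1 and 6.27 CPM.
miR-503-5p: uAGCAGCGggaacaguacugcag
Mir450b had 24 and 9 counts, Mir450-2 had 6 and 2, and Mir450-1 had 0 in both. The 5p arms of Mir450-1 and Mir450-2 are identical over 22 bases, so their reads are also missing.

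Of these 6 genes, 4 had enough counts to be tested, and 3 were called lower in replicate 2, like Mir322, against the background of 35.6%. Mir503 had a log2 ratio of -0.77 (SE 0.28, adjusted p 0.00172, exact test), Mir542 of -0.28 (SE 0.19, adjusted p 0.0321) and Mir351 of -0.12 (SE 0.06, adjusted p 2.16e-06). The exact test uses totals, under which the log2 ratios were -0.93 (Mir503), -0.45 (Mir542) and -0.28 (Mir351). Under TMM the ratio of Mir542 lay within 2 SE of 0. Mir450b, at -1.02 (SE 0.55), did not pass (adjusted p 0.0586, exact test). The level of Mir450-2 in replicate 1 was 2.36 times that in replicate 2, with an exact 95% interval of 0.422 to 23.9.

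Other genes with the same seed had almost no uniquely mapped reads, and they were not searched for copies of their arms. Mir195b, which resembles Mir195a, had 0 counts in replicate 1 and 1 in replicate 2, and its mature sequence is given with the seed in capitals.
miR-195b: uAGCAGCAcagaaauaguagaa
Mir6342, Mir6353 and Mir6419 had 0 counts in both libraries. Of the 11 genes with the seed, the 7 members thus held every count but that 1 read.

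Among genes outside the family and its loci, those with the nearest levels over the 2 libraries were found by the distance of log2(CPM + 1). With 2 points per gene this measure describes level and ratio only. Mir497 was nearest to Mir326 (distance 0.08), Mir187 (0.13) and Mir27b (0.14), which had 1051, 1174 and 1198 CPM in replicate 1 and 949, 1044 and 1024 CPM in replicate 2. Mir195a had no close match, and its nearest gene was Mirlet7c-1, at 506 and 827 CPM (distance 0.46). The nearest were Mir369 for Mir15b (0.06), Mir331 for Mir15a (0.11), Mir574 for Mir16-1 (0.08), Mir500 for Mir322 (0.17) and Mir8112 for Mir16-2 (0.16).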

How the data were processed

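The authors deposited raw counts of reads per gene, made on mm10 with GENCODE M21 per their deposited notes. Which aligner and counter they ran is not given in the sources read. A library's file holds 3 unnamed columns of counts and 4 read classes, which were left out of library sizes. The second count column was taken as sense. Row identifiers were matched to GENCODE M21 names, and the mature arms of all 7 members matched RefSeq (GRCm38.p6).

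Scaling used edgeR 4.0.16 (TMM) and DESeq2 1.42.0 size factors, and tests used SciPy 1.17.1. No model of spread was fitted, since there is 1 group. Intervals of levels and shares are exact (Clopper-Pearson, 95%), those of the log2 ratios between neighbours are normal ones from the counting SE, the floor for a count of 0 is 3 counts, and all cover counting error only. Shared runs were searched on both strands in the GENCODE hairpins of all 2202 genes. Only the exact test, the log2 ratio under totals and the exact interval were run on simulated counts. The other steps were not. Named genes were all members, microRNA genes within 10 kb, genes with the members' seed, and the nearest gene in level to each member (3 for the highest). Members and lists were chosen with earlier results of these data known. Alternatives were the count column, the denominator, the scaling, the counts added, the filter on low counts and each library alone.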

Additional observations from a re-analysis of the deposited data

Results flagged for a closer look

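Reads on the strand opposite to Mir497, which lie outside the main counts, numbered 4 in replicate 1, above the floor of 3 counts. In replicate 2 there were 2. They are the sense counts of Mir497b.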

How the results depend on the processing

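Leaving out 1 library is no check of a mean here, since each of 2 values always lies within 1 SD of it. Of the values recomputed under other settings, 42 were labelled as kept, 4 moved by more than 1 SD between the libraries and 3 changed sign. The 42 kept their direction and side of the threshold or moved by less than 1 SD. The exceptions are some counts of members called, which were labelled as kept although they differed, as given below. Without strand, Mir497 was listed at 0 CPM, the family's mean level was 1495 CPM, Mir16-1 was at 189 CPM because the total is smaller, and the mean log2 ratio of Mir497 over Mir195a was -12.73, which shows the loss of Mir497 and no level. Set against all reads of a library, the family's level was 1022 on the same scale. Under totals the log2 ratios of Mir497 (-0.15) and Mir16-1 (-0.026) changed sign. The log2 ratio of Mir15a over Mir16-1 was -0.094 without replicate 1 and 0.65 without replicate 2, so its sign rests on the library. The counts of members called higher (2) and lower (3) did not change with a minimum of 50 counts, with no filter or without strand. Totals alone gave 2 higher and 4 lower, and DESeq2 size factors alone gave 3 and 3. No paired analysis was possible because there is 1 group. Mir16-2, at 211 and 249 counts, was the least precise member, and both Mir16 genes lack the miR-16-5p reads.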
